A study of Bos taurus with 4 samples.

Results

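CD74, ITGB2, CD14, CD68, AIF1 and TPSB2 are marker genes of macrophages and mast cells, the resident immune cells that lie between the fibres of skeletal muscle. They are 6 of the 6376 genes that had a symbol and a probe bright enough to be kept. Each was represented by its only probe, printed as 2 spots per array. They were chosen on measured values, the log2 ratio of each array and how far array 3 departed from the others, so these values are given as a description, with no test. The RNA came from the semitendinosus of the hind limb, taken from bulls aged 15 months. On every one of 4 two-colour arrays a Limousin bull (LIM, a beef breed; Cy5) was hybridised with a Holstein-Friesian bull (HF, a dairy breed; Cy3), which makes 4 bulls per breed. Fat and connective tissue had been cut away before freezing, per the study's methods, and the labels name no treatment.

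All ratios are LIM over HF as the dye labels state. This direction is the opposite of the one the study's text gives for MSTN, the gene of the growth inhibitor myostatin, and FST, the gene of its antagonist follistatin, where it also rests on other assays of these genes. If the dye labels were turned, every sign here would turn and the LIM and HF levels would change places, and these arrays alone cannot settle this. Here the log2 ratio was 0.68 ± 0.13 for MSTN and -1.002 ± 0.198 for FST (moderated SE, n = 4), and neither passed (limma adjusted p = 0.0505 for MSTN and 0.0545 for FST). No array carried the dyes the other way round, and dye and breed therefore cannot be told apart. Of 42990 spots per array, the LIM channel had 32513 to 33527 well above background, and the HF channel had 27102 to 28769. All 8 measured genes of the muscle fibre, among them ACTA1, CKM, DES, MYH1 and MYH7, were above background on every spot of every array in both channels. In whole muscle, fewer cells of a type and less RNA per cell cannot be told apart.

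Macrophages take up debris and microbes, and they present fragments of them to T lymphocytes. CD74, the invariant chain, holds the peptide groove of MHC class II molecules until they reach the compartment where peptides are loaded. ITGB2 is the beta2 integrin chain by which leukocytes adhere, CD14 a co-receptor for bacterial lipopolysaccharide, CD68 a glycoprotein of lysosomes and AIF1 (also called IBA1) a calcium-binding protein of the actin cytoskeleton. TPSB2 is a tryptase, the protease that fills the granules of mast cells. None of these genes is exclusive to 1 cell: CD74 is shared with B lymphocytes and dendritic cells, and ITGB2 with all leukocytes.

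The means of all 6 genes were below 0, against 49.5% of all genes, so the normalized signal was lower in the LIM than in the HF channel. The exception was ITGB2, with 0.22 when arrays were centred on their medians in place of intensity-dependent (loess) normalization. Before normalization, the raw signals of the 6 genes were higher in the LIM channel, except for AIF1 on array 3 (187.5 against 197). The mean was largest in size for TPSB2 in the main fit and under each of the 5 other settings of background, normalization or value table. With 1 array left out this held without array 3 or 4. Without array 1 the mean of AIF1 was larger in size, and without array 2 that of CD74. The mean was smallest in size for CD68, but for ITGB2 with processed signals or the series table and for CD74 with median centring. ITGB2, CD14 and TPSB2 were below 0 on all 4 arrays and CD74, CD68 and AIF1 on 3 of 4. Of all genes, 17.5% were below 0 on all 4 arrays. The median over the 6 genes was -0.15, -0.20, -0.65 and -0.91 on arrays 1, 2, 3 and 4, where the median of all genes lay between -0.025 and 0.016. The number of arrays limits the precision.

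**Figure D1:**
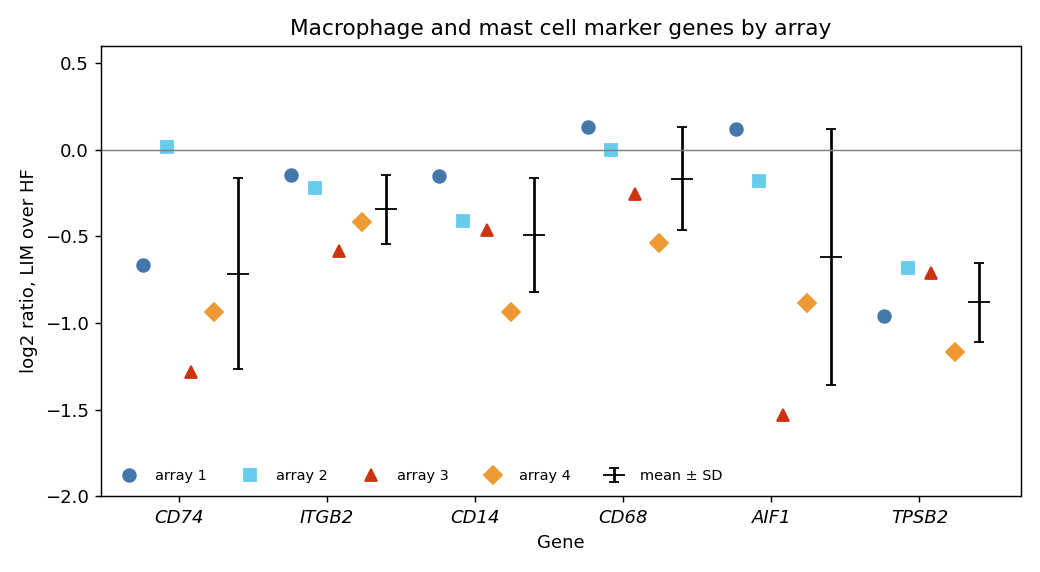
Log2 ratio of LIM over HF (vertical axis) for the 6 genes (horizontal axis). Each symbol is 1 array, and the bar shows mean and SD; AIF1 spans the widest range, 1.65 between array 1 and array 3, ITGB2 the narrowest, 0.44, and the ratios of ITGB2 turn above 0 on arrays 2, 3 and 4 with median centring.

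CD74 had log2 ratios of -0.66, 0.019, -1.28 and -0.93 on arrays 1 to 4, a mean of -0.71 ± 0.55 (SD, n = 4) or 1.64-fold lower in LIM. The LIM and HF bulls of array 2 thus had nearly equal normalized CD74 signals, and the pair of array 3 stood farthest apart. With median centring the ratios were -0.63, 0.70, -0.30 and -0.24, so that array 2 stood farthest from 0, and the mean was -0.12. The 2 spots of the probe differed by at most 0.061 on any array, far less than the arrays did. The normalized log2 level was 9.54, 10.03, 9.90 and 10.35 in the 4 LIM bulls and 10.21, 10.01, 11.18 and 11.29 in the 4 HF bulls. The HF bulls of arrays 3 and 4 were the high ones, above every LIM bull, and the lowest HF bull lay among the LIM bulls.

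ITGB2, the integrin chain, had a small spread between arrays. Its log2 ratios were -0.14, -0.22, -0.58 and -0.42 on arrays 1 to 4, a mean of -0.34 ± 0.20 (SD, n = 4). With median centring they were -0.11, 0.42, 0.31 and 0.25, so its direction is not settled. The log2 level was 10.04, 9.49, 9.47 and 9.83 in LIM bulls and 10.18, 9.72, 10.05 and 10.25 in HF bulls. The ranges of the 2 breeds overlapped, and ITGB2 was the only one of the 6 genes whose levels spread more among LIM bulls (0.57) than among HF bulls (0.53).

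CD14, the lipopolysaccharide co-receptor, had log2 ratios of -0.15, -0.41, -0.46 and -0.94 on arrays 1 to 4, a mean of -0.49 ± 0.33 (SD, n = 4). Array 4 and not array 3 was the lowest. Its log2 level was 7.22, 7.04, 6.86 and 7.07 in LIM bulls and 7.38, 7.45, 7.32 and 8.01 in HF bulls. After normalization between arrays each HF bull thus lay above all LIM bulls, but narrowly (7.32 against 7.22). Without the between-array step the HF level was 7.55 on array 1 and 7.23 on array 3. With the ratio of -0.15, the LIM bull of array 1 then lay above the HF bull of array 3. The share of all genes with such a gap was not counted. CD14 was a dim probe, with a raw spot signal of 137 to 172 over a local background of 36.5 to 39.5 in the LIM channel and of 78.8 to 154 in the HF channel. On array 3 its 2 spots differed by 0.33, as much as the SD between arrays.

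CD68, the lysosomal glycoprotein, was measured close to its local background. Its log2 ratios were 0.13, -0.00059, -0.26 and -0.54 on arrays 1 to 4, a mean of -0.17 ± 0.30 (SD, n = 4). The raw spot signal was 74.0 to 86.3 in the LIM channel and 46.5 to 64.5 in the HF channel, against a local background of 35.3 to 40.5 in LIM and 28.3 to 30.0 in HF. With the scanner software's own processed signals, computed without the offset of the background correction used here, the ratios were 0.34, -0.015, -0.82 and -1.66, with array 4 again the lowest and a mean of -0.54. The levels of LIM bulls (6.62, 6.52, 6.39 and 6.32) and HF bulls (6.49, 6.52, 6.65 and 6.86) overlapped.

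AIF1, the macrophage actin-bundling protein, had a wide spread between arrays. Its log2 ratios were 0.12, -0.18, -1.53 and -0.89 on arrays 1 to 4, a mean of -0.62 ± 0.74 (SD, n = 4), and without array 3 the mean was -0.31. The 2 spots on array 3 differed by 0.0021, so the low value stood on both. The log2 level was 7.49, 7.56, 7.06 and 8.09 in LIM bulls and 7.37, 7.74, 8.59 and 8.98 in HF bulls. Array 3 joined the lowest LIM bull to the second highest HF bull, and array 4 the highest of each breed. The SD of AIF1 between arrays exceeded that of 97.5% of all genes, and that of CD74 exceeded 93.6%, against 46.5% for ITGB2 and 54.5% for TPSB2.

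TPSB2, the mast cell tryptase, had the lowest mean and little spread. Its log2 ratios were -0.96, -0.69, -0.71 and -1.17 on arrays 1 to 4, a mean of -0.88 ± 0.23 (SD, n = 4) or 1.84-fold lower in LIM. Its log2 level was 8.68, 8.56, 8.62 and 8.58 in LIM bulls, a range of 0.12, and 9.64, 9.24, 9.33 and 9.75 in HF bulls, a range of 0.50. After normalization between arrays (Aquantile) the 4 LIM levels lay close together and below every HF level. How many of all genes have such a gap was not counted. Since tryptase genes are close copies of each other, the probe may also read other tryptases. With median centring the ratio of array 3 was 0.066 and the mean -0.38.

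**Figure D2:**
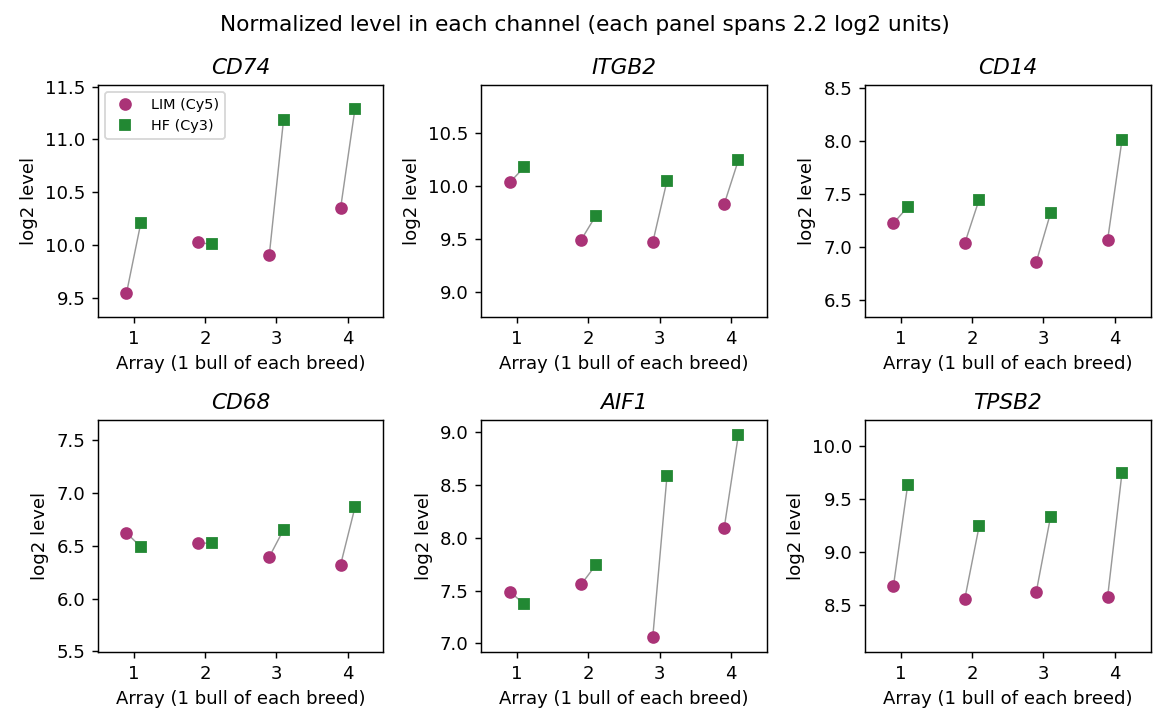
Normalized log2 level (vertical axis, 2.2 units in each panel) of the 6 genes in the LIM bull (circles, Cy5) and the HF bull (squares, Cy3) of each array (horizontal axis); grey lines join the 2 bulls of 1 array. The HF bull of array 4 is the highest HF bull in all 6 panels, and the LIM bulls of TPSB2 lie within 0.12 of each other.

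The departure of array 3, its log2 ratio minus the median of the other 3 arrays, did not run the same way in all 6 genes. It was -1.35 for AIF1, -0.62 for CD74, -0.36 for ITGB2 (0.067 with median centring), -0.26 for CD68, -0.051 for CD14 and 0.25 for TPSB2. With median centring it was -1.15 for AIF1, -0.36 for CD68, -0.097 for CD14, -0.054 for CD74 and 0.63 for TPSB2. With processed signals it was -0.81 for CD68. AIF1 had the 53rd lowest departure of 6376 genes and CD74 the 417th, while TPSB2 had a departure at or above that of 83.1% of genes. Only AIF1 of the 6 passed a departure of -1 on the log2 scale, as did 2.05% of all genes on array 3, against 1.24, 0.784 and 0.831% on arrays 1, 2 and 4. On array 1 AIF1 departed by 1.01, and 1.66% of all genes departed by 1 or more there. The departure of CD14 turned to 0.021 with scale normalization between arrays, 0.21 without array 1 and 0.085 without array 2, and that of CD68 to 0.013 without array 1. Array 3 was the lowest array for CD74, ITGB2 and AIF1, which are 3 of 6 genes, against 31.8% of all genes. With median centring this held for 1 gene, AIF1, and array 1 was the lowest for CD74, ITGB2 and TPSB2. Array 4 was the lowest for CD14, CD68 and TPSB2, the other 3, against 19.1% of all genes, though TPSB2 was lowest on array 1 with scale normalization or median centring. A low value on array 3 was thus not shared by all 6 genes.

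**Figure D3:**
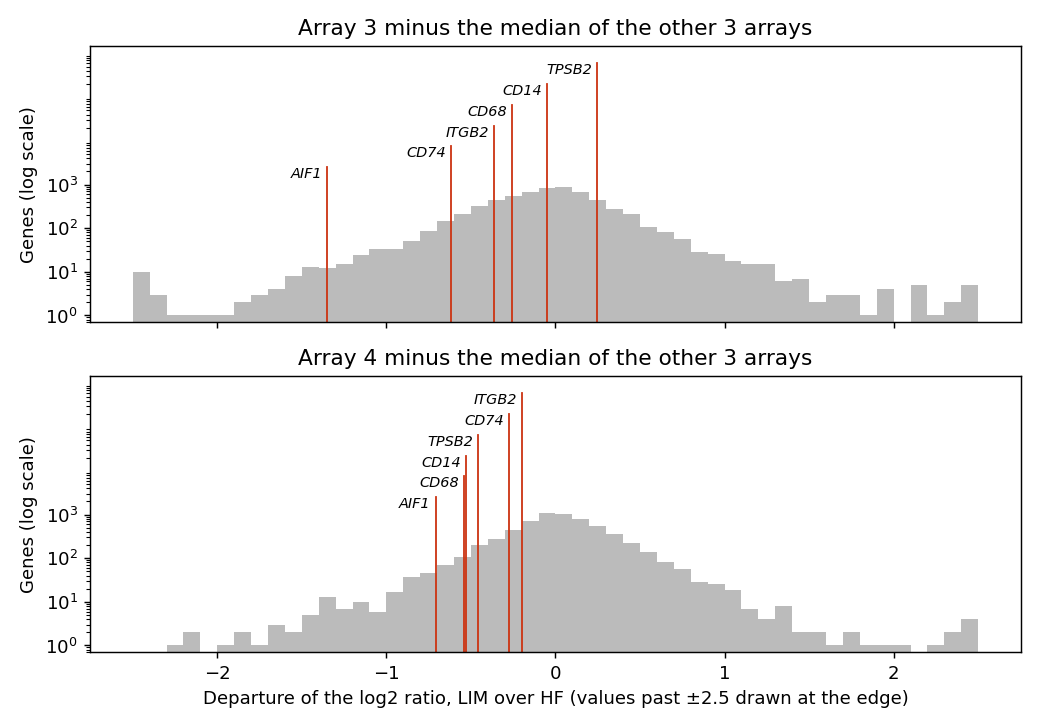
Number of genes (vertical axis, log scale) by the departure of the log2 ratio of array 3 (top) and array 4 (bottom) from the median of the other 3 arrays (horizontal axis, log2; genes beyond its ends are counted in the end bins). Red lines are the 6 genes: on array 3 they run from -1.35 (AIF1) to 0.25 (TPSB2), and on array 4 from -0.71 (AIF1) to -0.20 (ITGB2); under median centring ITGB2 has 0.067 and CD74 -0.054 on array 3.

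A pattern noticed in the values joined arrays 3 and 4. For CD74, ITGB2, CD14, CD68 and AIF1, which are 5 of the 6 genes, the ratios of arrays 3 and 4 were both below those of arrays 1 and 2, and TPSB2 was the exception. Of all genes, 16% had this order and 13.8% the opposite one. It held for 5 genes with processed signals, 4 with scale normalization and 3 with median centring, where CD74 and ITGB2 lost it.

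Split by channel, levels varied more among HF than among LIM bulls in most of these genes, as in most genes of the arrays. The HF bull of array 4 had the highest HF level of all 6 genes, against 22.5% of all genes. This held for 5 genes without the between-array step and for 4 with processed signals taken by channel, where ITGB2 and TPSB2 were highest in the HF bull of array 1. The median departure of the 6 genes in the HF channel was 0.52 on array 4 and -0.00074 on array 3. On array 3 the HF levels of CD74 (0.98) and AIF1 (0.85) lay above the median of the other HF bulls, and those of ITGB2, CD14 and TPSB2 below it. The LIM bull of array 3 had the lowest LIM level of ITGB2, CD14 and AIF1, which are 3 of 6 genes, against 27.7% of all genes. The range over the 4 bulls was wider in HF than in LIM for 5 of 6 genes, against 67.5% of all genes. These levels come from 1 channel per breed, so a difference in spread between breeds cannot be told apart from one between dyes.

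Other genes of the same cells were read from lists of markers, with the 6 genes above left out. Each was tested with limma, and 5.93% of all genes passed an adjusted p under 0.05 (2.78% higher and 3.15% lower in LIM; over all probes 5.47%, 2.96% higher and 2.51% lower). Of 18 further macrophage and monocyte genes, 5 of MHC class II and 7 of mast cells, 0 passed. At an unadjusted p under 0.05 there were 8 of these 30 genes, against 28.9% of all genes, and the methods' t-test with its fold limit called 0, 0 and 3 genes of the 3 lists, against 9.33% of all probes. Median centring called 1 macrophage and 1 mast cell gene, against 24% of all probes.

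Of 35 macrophage and monocyte genes listed, 21 were on the array under these names and 18 were kept. The macrophage list followed the order of the arrays more than a common direction. Its median was -0.10 (-0.091 with median centring), and 0.21, -0.018, -0.32 and -0.35 on arrays 1 to 4. The ratios of arrays 3 and 4 were both below those of arrays 1 and 2 in 13 of 18 genes, and the HF level was highest on array 4 in 15 of 18. C1QA, a chain of complement C1q made by tissue macrophages, had 0.19, -0.78, -1.37 and -1.36. SPI1, the transcription factor PU.1 that macrophages require, had 0.36, 0.066, -0.96 and -1.45. LYZ, lysozyme, had 1.24, 0.20, -1.43 and -1.32 and the lowest departure of array 3 in the list, -1.63. CYBA, a subunit of the oxidase that makes superoxide, had -0.39 ± 0.12 (moderated SE, n = 4; limma adjusted p = 0.115). The scavenger receptor MSR1 and the complement receptor VSIG4 had means of -0.11 and 0.018. NCF1, another subunit of that oxidase, ran the other way on array 3, with a departure of 0.23.

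Of the 5 MHC class II genes kept, 4 departed further below 0 than CD74 itself on array 3. CD74 had -0.62 there (-0.054 with median centring), and 6.54% of all genes lay at or below -0.62. BOLA-DRA, the MHC class II alpha chain, had -0.59, -0.011, -2.19 and -1.80 on arrays 1 to 4 (mean -1.15 ± 0.39, moderated SE; limma adjusted p = 0.140). Its order of the arrays was that of CD74, with array 2 highest and array 3 lowest. BOLA-DMB, a subunit of the molecule that exchanges peptides, had 0.57, 0.17, -2.32 and -0.55. BOLA-DQA5 and BOLA-DQB had a different pattern. BOLA-DQA5 had 2.23, -0.056, -1.95 and 2.62, and BOLA-DQB had 1.42, -0.099, -1.93 and 1.97. Both were above background in the LIM bulls of arrays 1, 3 and 4 and in the HF bull of array 3 alone. DQ genes differ in sequence and copy number between cattle, so these 2 values are uncertain as levels. BOLA-DYB, at 0.065 ± 0.064 (moderated SE), did not follow.

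Among genes of antigen processing, IFI30, a reductase of the loading compartment, had 0.65, -0.32, -1.13 and -1.07 on arrays 1 to 4, and LGMN, a lysosomal protease, had 0.54, 0.022, -0.84 and -0.44. The protease CTSB (mean -0.19) and MIF, the cytokine that binds CD74 (-0.0026), were closer to 0. CTSL had 0.18 ± 0.064 (moderated SE, n = 4; limma adjusted p = 0.155) and was above background in no HF bull. Of the 6 genes of this list 0 passed in limma, and 1 had an unadjusted p under 0.05, against 28.9% of all genes. The order of arrays 3 and 4 below arrays 1 and 2 held for 4 of them, against 16% of all genes. Processed signals called 1 of the 6, against 8.43% of all probes.

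The mast cell list had a median of -0.39 (-0.28 with median centring, -0.80 with processed signals). HDC, which makes histamine, had -0.31, -0.24, -0.51 and -0.54 on arrays 1 to 4 (limma adjusted p = 0.0546). CPA3, the carboxypeptidase of mast cell granules, had -0.20, -0.70, -0.77 and -0.52 (limma adjusted p = 0.0563), and GATA2, a transcription factor of the lineage, had -0.17, -0.50, -0.60 and -0.28 (limma adjusted p = 0.0753). These 3 kept 1 sign on all arrays, as TPSB2 did, but none passed. KIT, the receptor on which mast cells depend, had 0.053, -0.20, -0.91 and -0.39. SRGN, the proteoglycan of granules that other leukocytes also make, had 0.0094, -1.15, -2.28 and -1.63 and followed arrays 3 and 4. ALOX5 (2.18 on array 1, where no HF bull was above background) and SLC18A2 (mean -0.044) did not share the direction. Processed signals and the offset of 10 each called 2 genes of this list, against 8.43% and 7.57% of all probes.

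For ITGB2 the alpha chains ITGAL and ITGAM were on the array but too dim to be kept. ICAM1, the ligand that beta2 integrins bind on endothelium, had -0.38, -0.67, -0.997 and -0.87 on arrays 1 to 4 and fell in LIM (mean -0.73 ± 0.12, moderated SE, n = 4; limma adjusted p = 0.0394). With dim probes kept in, its adjusted p was 0.0512. It was 0.121 with an intensity trend and 0.0601 to 0.137 with 1 array left out, so the call did not outlast any of these. FERMT3, which activates integrins in blood cells, had 0.017, -0.077, -0.39 and -0.56. For CD14, none of 12 genes of Toll-like receptor signalling passed in limma, and 3 had an unadjusted p under 0.05, against 28.9% of all genes. TLR4, the receptor that CD14 serves, had 0.48, 0.46, -0.36 and -0.38 on arrays 1 to 4, with the order of the macrophage markers. NFKBIA, an inhibitor of NF-kappa-B, averaged -1.54 ± 0.30 (moderated SE; limma adjusted p = 0.0530). LBP, the plasma carrier of lipopolysaccharide, had 0.66 on array 3 and -0.45 on array 1.

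Chemokines that draw monocytes also moved on array 3. CCL2 had 1.07, 1.35, -1.69 and -0.80 on arrays 1 to 4, with a mean of -0.018 and a departure of array 3 of -2.76. CCL5 had -0.28, -0.20, -2.64 and -2.27, and its levels were 7.36, 7.28, 7.01 and 7.03 in LIM bulls and 7.65, 7.48, 9.65 and 9.31 in HF bulls. CSF1 and KITLG, the growth factors of macrophages and mast cells, stayed within 0.25 of 0 on all 4 arrays. None of the 7 genes passed in limma and 1 had an unadjusted p under 0.05, against 28.9% of all genes.

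**Figure D4:**
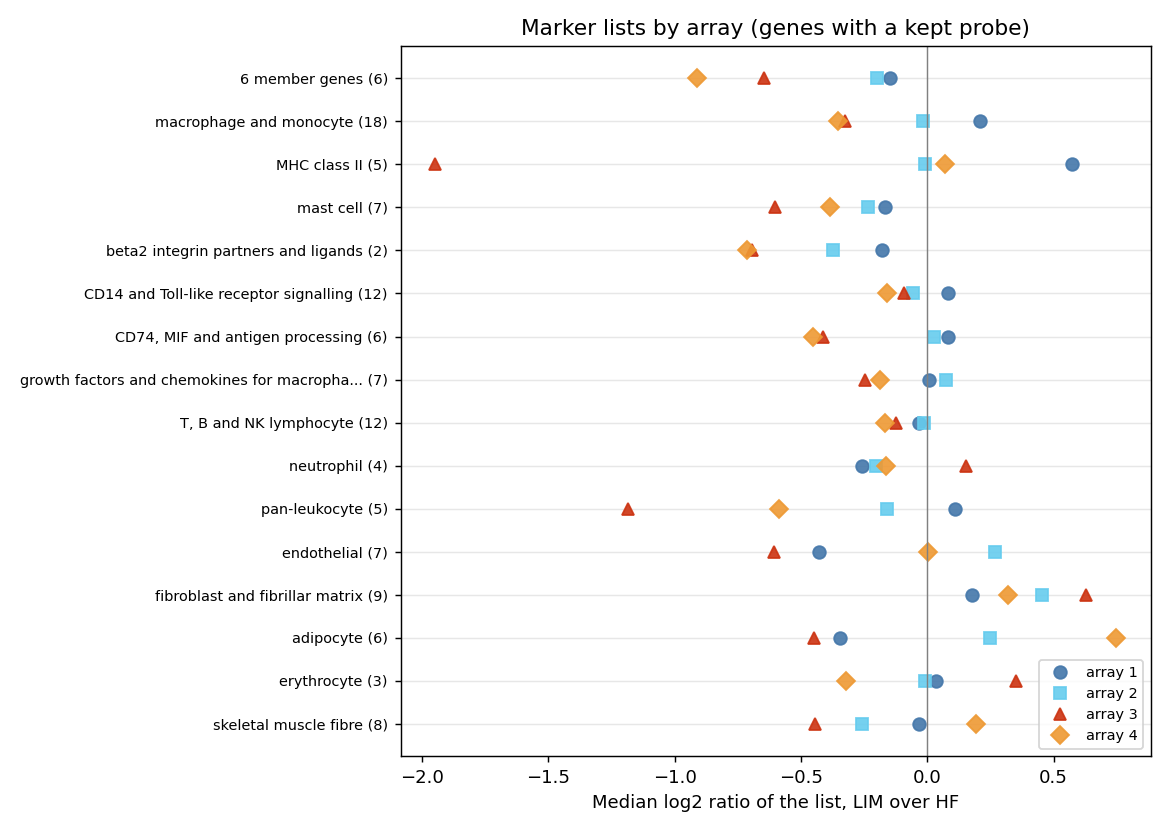
Median log2 ratio of LIM over HF (horizontal axis) of the 6 genes and of 15 marker lists (vertical axis, number of genes kept in parentheses); symbols are the 4 arrays. Arrays 3 and 4 lie left of arrays 1 and 2 for the 6 genes (-0.65 and -0.91) and the macrophage list (-0.32 and -0.35). The same holds for the mast cell, beta2 integrin, Toll-like receptor, antigen processing, growth factor and chemokine, lymphocyte and pan-leukocyte lists. Array 3 lies rightmost for fibroblast and matrix genes (0.63), and also for neutrophil and erythrocyte genes.

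Markers of other cells moved on the same arrays, and their part in these values was not tested. Pan-leukocyte genes had medians of 0.11, -0.16, -1.18 and -0.59 on arrays 1 to 4, and in 4 of 5 arrays 3 and 4 lay below arrays 1 and 2. CD48, a surface protein of leukocytes, had -0.29, -0.52, -2.08 and -1.43. Of 12 lymphocyte genes 7 had that order, among them CD3E (-0.23, -0.30, -1.02 and -0.56) and CD8A (-0.078, -0.45, -0.72 and -0.78; mean -0.51 ± 0.13, limma adjusted p = 0.0887). Of 4 neutrophil genes 0 had it, and S100A12 had a departure of 1.24 on array 3. Endothelial genes had medians of -0.43, 0.27, -0.61 and 0.0047 on arrays 1 to 4, so arrays 1 and 3 were the low ones. Of 9 fibroblast and matrix genes, 3 had a departure of array 3 at or above 1 (87 of all 6376 genes), and 2 had one below 0. Those 3 were the collagen genes COL1A1 (1.86), COL1A2 (2.11) and COL3A1 (2.23). COL3A1, of type III collagen, rose in LIM (mean 2.53 ± 0.44, moderated SE; limma adjusted p = 0.0440), with 4.23 on array 3 and 1.75 to 2.14 on the others, but it did not pass without array 1, 2 or 4 (adjusted p = 0.0774 to 0.135). Muscle fibre genes differed among themselves on array 3, with departures of 2.00 for ACTA1 and -1.48 for MYH2. MB, myoglobin, rose (1.02 ± 0.15; limma adjusted p = 0.0325), CFD of adipocytes, complement factor D, fell (-1.17 ± 0.20; limma adjusted p = 0.0442), and neither passed with 1 array left out. The median was -0.21 over 8 muscle fibre genes (0.52 with median centring), 0.13 over 6 adipocyte genes, -0.092 over 3 erythrocyte genes (0.40 with median centring) and -0.033 over 4 neutrophil genes (0.30 with median centring).

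The genes whose 4 ratios were closest to the mean profile of the 6 genes (-0.28, -0.25, -0.80 and -0.81 on arrays 1 to 4) were found by the root mean square difference over the 4 arrays, among 6322 named genes. They were HIF1A (0.067), TRAPPC6B (0.095), ALDOC (0.10), BTG3 (0.12), POP5 (0.13), ACAA2 (0.13), TAGAP (0.13) and TSPO (0.14). HIF1A, the hypoxia-inducible transcription factor, had -0.24, -0.22, -0.76 and -0.93. TSPO, a protein of the outer mitochondrial membrane, had -0.32, -0.22, -0.61 and -0.63. Of these 8 only POP5 passed (-0.57 ± 0.087, moderated SE; limma adjusted p = 0.0366), and it had 0.045 with median centring. Its limma adjusted p was 0.0507 with processed signals, 0.121 with an intensity trend and 0.0723 to 0.133 with 1 array left out. The 6 genes themselves lay farther from their own mean, from 0.21 for CD14 to 0.44 for TPSB2, with 45 to 862 named genes at least as close. A profile over 4 arrays is thus met by many genes.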

How the data were processed

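Muscle RNA of 4 LIM and 4 HF bulls was measured on 4 two-colour Agilent arrays, replicates 1 to 4 per the labels. The deposited intensity values are median spot and local background signals, with processed signals from the authors' scanner software (Feature Extraction 10.7.3.1), corrected there for background and dye. Red over green is the direction of the deposited log10 ratios, and the value table of the series repeats them (largest difference 0, column medians 0, no further centring). The well-above-background, saturation and outlier flags are other deposited values, per the file headers.

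Here background was corrected with normexp (offset 50), log2 ratios were normalized by loess within arrays with control spots at weight 0, non-uniform spots (5 to 10 per array) were left out, and spots of a probe were averaged. Of 21475 probes, 15856 were kept, if most of their spots were well above background in 1 channel on 3 or more arrays. No spot was saturated. The SD of duplicate spots was 0.074 to 0.091 and the median SD between arrays 0.19. Probes were named by RefSeq accession with the table of ARS-UCD2.0, used for names only (8297 probes matched), and the brightest kept probe stood for a gene. Channel levels are after Aquantile normalization. limma 3.58.1 (R 4.3.3) gave the two-sided test of each mean ratio against 0, Benjamini-Hochberg adjusted across the kept probes. On simulated data the fit called 10.4% of changes of 1.3-fold, 43.2% of 1.5-fold, 66.8% of 2-fold and 91.4% of 4-fold. A gene that did not pass may therefore still differ. P-values measure the spread between these 4 pairs.

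The 6 genes, 15 lists and tests were chosen with earlier results of these data known. Named genes were the 6, those called in each list (up to 3) or else the smallest p, the extremes of the departure of array 3 at 1 or more, 8 genes of like profile, and MSTN and FST. Other list genes, such as C1QA, SPI1, CPA3 and CD3E, were named after their values were seen. Alternatives were processed signals, an offset of 10, median centring, scale normalization, the filter on dim probes, weights per array, an intensity trend with robust prior, unpaired channels, the methods' t-test, the series table and leaving out each array. The order of arrays 3 and 4, and the channel settings, were added after seeing the data. All arrays shared 1 slide. Hereford arrays of the study, and sequences of the probes and genes, were not used here.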

Additional observations from a re-analysis of the deposited data

Results flagged for a closer look

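In 2 genes, both with an extreme departure of array 3 in their list, 1 array stood apart by Dixon's gap-to-range ratio, which is given as a description. In all 67 sets of values were checked and 2 were past the limit, where 3.35 would be by chance. S100A12, a calcium-binding protein of neutrophils, had a ratio of 0.889, with a log2 ratio of 0.73 on array 3 and -0.52 to -0.38 on the others. COL3A1 had a ratio of 0.844, with 4.23 on array 3 and 1.75 to 2.14 on the others.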

How the results depend on the processing

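The median of the 6 mean ratios was -0.55 and ranged from -0.82 with processed signals to -0.31 with median centring, which moved the median of all kept probes to 0.25. Relative to that shift ITGB2 had -0.035 and the other 5 genes -0.64 to -0.37. With median centring ITGB2 turned to 0.22 and its departure of array 3 to 0.067, POP5 turned to 0.045, and the order of arrays 3 and 4 held for 3 in place of 5 genes. The departure of CD14 turned to 0.021 with scale normalization. With 1 array left out it ranged from -0.18 to 0.21, and that of CD68 from -0.32 to 0.013. Averaging probes per gene gave no other value, as each of the 6 had 1 probe. Over all probes limma called 867 (54.1% higher), 1336 with processed signals, 1339 with the series table, 3800 with median centring (92.8% higher), and 0 with an intensity trend and robust prior (4098 at an unadjusted p under 0.05). The methods' t-test called 1479 at its own thresholds and 1 after adjustment. Leaving out 1 array gave 0 to 51 calls (51 without array 3; 0 without array 1, 2 or 4, with 3911, 3301 and 3184 at an unadjusted p under 0.05). The fit with unpaired channels, without the pairing of bulls by array, called 1089. The causes were not tested. CD68 had raw HF signals of 46.5 to 64.5 over a local background of 28.3 to 30.0, which limits its ratios.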
